A study of Mus musculus with 6 samples.

Results

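The 10 genes described here encode the scaffold proteins of the postsynaptic density: *Dlg1*, *Dlg2*, *Dlg3* and *Dlg4*, *Shank1*, *Shank2* and *Shank3*, and *Homer1*, *Homer2* and *Homer3*. They were chosen by name, not by their values, as the rows of the gene table that carry these symbols, 10 of 52390 genes listed, and all 10 passed the filter on low counts that left 21844 genes for testing. The study sequenced brain RNA to find genes that respond to AP1AR-DT, a human long non-coding RNA that it links to bipolar disorder and that its labels call AC109347.1. Both groups were wild-type male C57BL/6J mice that received an adeno-associated virus in the medial prefrontal cortex at the age of 8 weeks. The 3 AP1AR-DT OE mice received a virus carrying AP1AR-DT under the human synapsin promoter, which restricts it to neurons, while the 3 control mice received the empty virus. The sequenced tissue is given as brain in the labels, as the medial prefrontal cortex in the study's results and as cortex in its methods. The level of AP1AR-DT itself was not analysed here, so the labels carry no check from the overexpressed RNA.

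The postsynaptic density is the protein layer beneath the membrane of an excitatory synapse that holds glutamate receptors opposite the site of transmitter release. The Dlg proteins (*Dlg4* encodes PSD-95, *Dlg1* SAP97, *Dlg2* PSD-93 and *Dlg3* SAP102) bind receptors and adhesion proteins through PDZ domains near the membrane. The Shank proteins lie deeper, tied to the Dlg layer through the Dlgap (SAPAP) proteins, and the Homer proteins bind Shank and link it to group I metabotropic glutamate receptors and to IP3 receptors.

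The genes of each family are paralogs, and a read that matches several of them equally well cannot be given to any of them with confidence. To show how far they can be told apart, the most alike coding stretches of 90 bases are printed for the Dlg family, which holds the gene that passed the test below, and for the Homer family, whose members differ most in base composition. Capitals mark the bases that are identical in all members of the family. The Dlg stretches, 66 of 90 bases identical in all 4 genes, lie in the sequence of the third PDZ domain, and coordinates and exon numbers are those of the longest coding transcript in GENCODE vM21 on GRCm38.
Dlg1 (chr16:31812708-31812797, + strand, exon 14): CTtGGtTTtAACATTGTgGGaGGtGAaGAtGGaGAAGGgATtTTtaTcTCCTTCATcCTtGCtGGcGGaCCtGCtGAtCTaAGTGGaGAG
Dlg2 (chr7:92088602-92088691, + strand, exon 17): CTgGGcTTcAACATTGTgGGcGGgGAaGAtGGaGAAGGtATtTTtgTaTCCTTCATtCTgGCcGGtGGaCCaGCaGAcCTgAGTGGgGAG
Dlg3 (chrX:100775847-100775936, + strand, exon 9): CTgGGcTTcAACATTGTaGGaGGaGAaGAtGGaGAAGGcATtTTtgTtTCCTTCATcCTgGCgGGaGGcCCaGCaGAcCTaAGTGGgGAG
Dlg4 (chr11:70039202-70039291, + strand, exon 11): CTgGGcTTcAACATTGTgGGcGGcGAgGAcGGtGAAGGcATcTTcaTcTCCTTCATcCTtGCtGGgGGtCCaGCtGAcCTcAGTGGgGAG
The Homer stretches, 66 of 90 bases identical in all 3 genes, lie in the EVH1 domain and are split between exons 2 and 3, so that each pair of coordinates includes an intron.
Homer1 (chr13:93341910-93346655, + strand): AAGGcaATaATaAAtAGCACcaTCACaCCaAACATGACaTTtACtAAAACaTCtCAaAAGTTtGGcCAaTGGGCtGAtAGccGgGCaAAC
Homer2 (chr7:81636406-81649556, - strand): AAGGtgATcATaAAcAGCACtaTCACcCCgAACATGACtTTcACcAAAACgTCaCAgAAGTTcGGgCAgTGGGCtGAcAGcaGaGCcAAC
Homer3 (chr8:70285548-70286017, + strand): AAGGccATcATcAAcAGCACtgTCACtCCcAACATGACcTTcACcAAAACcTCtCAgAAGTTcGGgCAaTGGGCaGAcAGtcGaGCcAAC
Even here the genes differ every few bases. The longest run shared by any pair within the stretches was 23 bases, between *Dlg2* and *Dlg4*, and the 3 Shank genes, 67 of 90 bases identical in an ankyrin repeat stretch, shared at most 17. Over the longest transcripts, no stretch of 100 bases was shared between members.

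Some members do overlap a gene of the opposite strand. *Homer3* overlaps exons of *Ddx49*, an RNA helicase gene, over 25.4% of its own exonic bases, and 24.6% of all runs of 100 bases along the longest *Homer3* transcript also occur in *Ddx49*. For *Shank1*, *Shank3* and *Homer2* that share was 2.51%, 2.38% and 2.32%, with *1700008O03Rik*, *Gm15609* and *Gm44570*. *Dlg2* overlaps short genes of its own strand over 1.38% of its exonic bases. The library kit named in the labels does not mark the strand, so reads of *Homer3* and *Ddx49* in the shared exons cannot be told apart, and the *Homer3* values carry that uncertainty.

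The control libraries held 42061721 to 49957663 counts and the AP1AR-DT OE libraries 51374941 to 54668294, and mitochondrial genes took 7.20% to 9.86% and 5.75% to 6.80% of them, so the groups were separate in both, and the part of this in the results was not tested. Every member was covered by at least 588 counts in every mouse. The AP1AR-DT OE libraries are called A, B and C, since their columns do not show which mouse each came from. The tissue markers differed widely between mice. Markers of cortical excitatory neurons were uneven, with *Slc17a7*, the vesicular glutamate transporter of cortex, at 3.86 to 233 normalised CPM (counts per M counts, after scaling between libraries) in the controls and 87.2 to 463 in the AP1AR-DT OE mice. Control 2 held 184 CPM of *Avp* and 281 of *Oxt*, hypothalamic neuropeptide genes, against at most 0.87 and 1.66 CPM in the AP1AR-DT OE mice. Control 3 held 3428 CPM of *Ttr*, the main transcript of the choroid plexus, against at most 5.43 in the other mice. It also held hypothalamic and thalamic markers, with sums of 67.1 and 639 CPM. The summed level of 6 striatal markers ran from 179 to 830 CPM in the controls and from 537 to 1531 in the AP1AR-DT OE mice. The sums of the 6 hypothalamic and 5 choroid plexus markers ran from 3.71 to 482 and from 11.1 to 3786 CPM in the controls, and from 5.24 to 8.27 and from 9.90 to 18.1 in the AP1AR-DT OE mice. Glial and vascular sums, controls first, were 1813 to 2015 and 1703 to 1755 CPM for 5 astrocyte markers, 4570 to 9831 and 4542 to 4598 for 5 oligodendrocyte markers, and 49.4 to 58.2 and 60.5 to 93.5 for 3 endothelial markers. Of these, the oligodendrocyte sums overlapped between the groups. The groups also overlapped for oligodendrocyte precursors (85.4 to 104 and 85.3 to 89.4 CPM, 2 markers), microglia (215 to 267 and 224 to 314, 5 markers) and hippocampus (185 to 353 and 242 to 420, 3 markers). The hippocampal sum was mainly *Wfs1*, which was lowest in control 3 (136 CPM). The other hippocampal markers, *Prox1* and *Dsp*, stood at 93.3 and 26.9 CPM in control 3, against at most 20.4 and 1.33 in the other mice. The 4 thalamic markers summed to 158 to 639 CPM in controls and 115 to 157 in AP1AR-DT OE mice. The libraries thus differed in the regional marker RNA they contain, and the part of this in each comparison below was not tested. In bulk tissue, fewer cells of a type and less RNA per cell cannot be told apart.

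Of the 10 scaffold genes, only *Dlg4* was called between AP1AR-DT OE and control mice, at P under 0.05 and |Log2FC| above 0.32 in edgeR's quasi-likelihood test, the thresholds of the study. That is 1 of 10 (10%), against 2675 of the 21844 genes tested (12.2%). The share of scaffold genes called was therefore near the background and is not a result about the family. At an adjusted P under 0.05, edgeR called 0 members, where 1 member had an unadjusted P under 0.05, and 6 genes of all tested (0.0275%). The adjusted P of the members ran from 0.309 to 0.941 in this fit, and over 17 fits, DESeq2 and limma-voom included, the lowest adjusted P of any member was 0.184. Log2FC, the log2 ratio of AP1AR-DT OE to control, was above 0 for 8 of 10 members with a median of 0.16, against 48.5% of all genes tested with a median of -0.014.

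**Figure D1:**
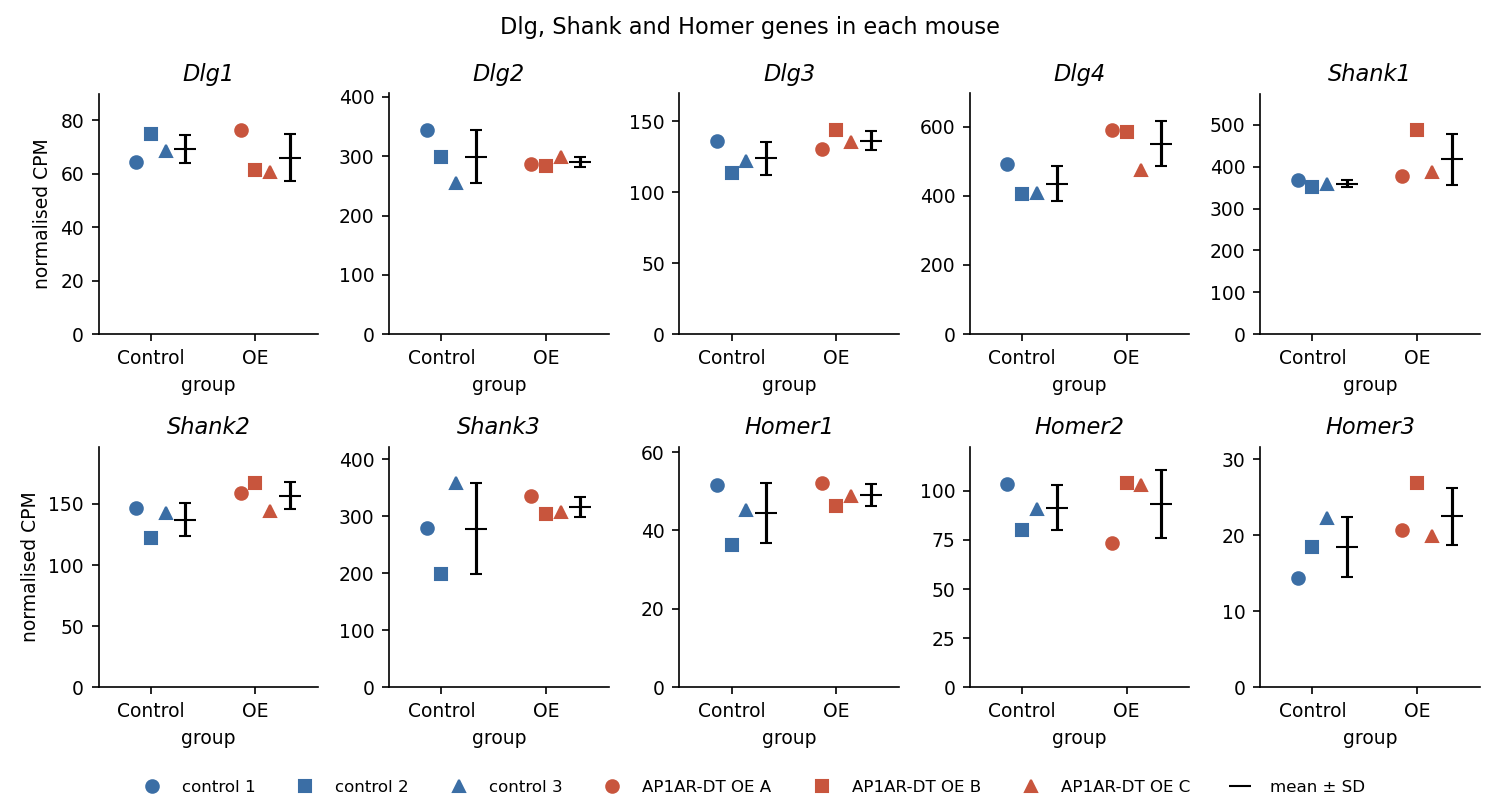
Normalised CPM of each scaffold gene (vertical axes, starting at 0) in the 3 control (blue) and 3 AP1AR-DT OE (red) mice, with the mean and SD of each group of 3 in black. The groups do not overlap for Shank1 alone, and control 2 (blue square) is the lowest of the 6 mice for 6 genes.

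Among the Dlg genes, *Dlg4*, which encodes PSD-95, a main scaffold of mature excitatory synapses, stood at 493, 404 and 409 normalised CPM in controls 1, 2 and 3, and at 589, 585 and 474 in AP1AR-DT OE mice A, B and C. Mice A and B were above every control, whereas mouse C was below control 1, so the groups overlapped. The means were 435 ± 50.01 CPM (SD, n = 3) in controls and 550 ± 65.3 (SD, n = 3) in AP1AR-DT OE mice. *Dlg4* rose 1.26-fold (95% interval 1.02 to 1.56), a Log2FC of 0.34 ± 0.13 (SE) with an adjusted P of 0.309 in edgeR. The exact permutation test gave P = 0.2, where 3 mice against 3 cannot give less than 0.1. The *Dlg4* call depended on the mice included. It passed without control 1 (Log2FC 0.44) and without mouse C (0.45), and was lost without control 2 (0.30), control 3 (0.31), mouse A (0.29) or mouse B (0.29). Against control 1 alone, whose summed hypothalamic and choroid plexus markers (3.71 and 17.7 CPM) were no higher than the highest AP1AR-DT OE mouse, its Log2FC was 0.16. Control 1 is a single library, and its summed excitatory markers, 395 CPM, were below those of every AP1AR-DT OE mouse.

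The other Dlg genes were not called. *Dlg3* (SAP102, the Dlg protein best known from immature synapses) stood at 136, 113 and 122 CPM in the controls and at 130, 144 and 135 in the AP1AR-DT OE mice, with a Log2FC of 0.14 ± 0.10 (SE; adjusted P = 0.514, edgeR). *Dlg2* (PSD-93), at 344, 299 and 255 CPM in controls and 287, 284 and 299 in AP1AR-DT OE mice, had a Log2FC of -0.04 ± 0.12. *Dlg1* (SAP97), which traffics AMPA receptors and is also made outside neurons, stood at 64.5, 74.9 and 68.6 CPM against 76.3, 61.4 and 60.5, with a Log2FC of -0.07 ± 0.12. For *Dlg2* and *Dlg1* the AP1AR-DT OE values fell within or on both sides of the control values. The 95% intervals were -0.33 to 0.24 for *Dlg2* and -0.36 to 0.22 for *Dlg1*, and reach just past a change as large as the fold threshold in the downward direction only.

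The 3 Shank genes had Log2FC values between 0.18 and 0.22, and none was called. *Shank1*, at 369, 350 and 360 CPM in the controls, stood at 378, 487 and 387 in the AP1AR-DT OE mice. Each AP1AR-DT OE mouse was above each control, the sole member for which the groups did not overlap, 1 of 10 (10%) against 22.4% of all genes tested. Mouse B was far above the others, and the Log2FC of 0.22 ± 0.12 (SE; adjusted P = 0.414, edgeR) became 0.09 without it. The exact permutation P of *Shank1* was 0.1, the smallest that this design allows.

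*Shank2* stood at 147, 122 and 143 CPM in controls and at 159, 167 and 145 in AP1AR-DT OE mice, with a Log2FC of 0.19 ± 0.11 (SE; adjusted P = 0.416, edgeR). Its groups overlapped only through control 1, which was above mouse C. *Shank3*, whose loss in humans causes Phelan-McDermid syndrome, was the most uneven of the family, at 279, 198 and 357 CPM in controls against 336, 303 and 307. The lowest and the highest mouse for *Shank3* were both controls, control 2 with hypothalamic markers and control 3 with choroid plexus, hypothalamic and thalamic markers. Its Log2FC of 0.18 ± 0.20 (SE; adjusted P = 0.686, edgeR) became 0.42 without control 3, past both thresholds (adjusted P = 0.399), and -0.0043 without control 2.

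None of the Homer genes was called either. *Homer1*, whose long forms tether metabotropic receptors and whose short activity-induced form uncouples them, stood at 51.7, 36.4 and 45.1 CPM in controls and at 52.0, 46.3 and 48.7 in AP1AR-DT OE mice. Only control 2 lay well below the rest, and the Log2FC of 0.14 ± 0.14 (SE; adjusted P = 0.647, edgeR) became 0.03 without it. The counts are per gene, so the long and short forms of *Homer1* are summed here. *Homer2* stood at 103, 80.1 and 90.7 CPM against 73.4, 104 and 103, so that the lowest mouse was an AP1AR-DT OE mouse, with a Log2FC of 0.03 ± 0.16. *Homer3*, the family member known best from cerebellar Purkinje cells, stood at 14.5, 18.5 and 22.3 CPM against 20.8, 26.8 and 19.9, with a Log2FC of 0.29 ± 0.20 (SE; adjusted P = 0.4998, edgeR). Control 1 was the lowest for *Homer3*, and against control 1 alone its Log2FC was 0.64, past both thresholds (adjusted P = 0.607, edgeR). It was 0.14 without control 1, 0.14 without mouse B and 0.46 without control 3, not called in any of these.

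Control 2 was the lowest of the 6 mice for 6 members, *Dlg3*, *Dlg4*, *Shank1*, *Shank2*, *Shank3* and *Homer1*, which is 60% of the scaffold genes against 17.9% of all genes tested. The 6 markers of excitatory neurons behaved in the same direction, with a summed level of 264 CPM in control 2, 395 and 737 in the other controls and 459 to 1223 in the AP1AR-DT OE mice. All 6 of those markers, none at 0 in any mouse, had a higher mean in the AP1AR-DT OE mice. The summed level of the 6 markers of inhibitory neurons was 1011 to 2035 CPM in controls and 1823 to 2085 in AP1AR-DT OE mice. The part of these differences in the scaffold values was not tested.

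Per kilobase, the mean levels of the scaffold genes ran from 3.90 to 37.2 RPKM. RPKM, the normalised CPM divided by the kilobases of annotated exon of the gene, was highest for *Dlg4* (37.2 ± 6.15, SD over 6 mice), *Shank1* (37.0 ± 4.76) and *Shank3* (32.3 ± 6.03). *Dlg3* (22.3 ± 1.87), *Dlg2* (18.1 ± 1.79) and *Shank2* (13.7 ± 1.43) followed. The lowest levels were those of *Homer2* (7.32 ± 1.05), *Dlg1* (6.31 ± 0.63), *Homer3* (5.95 ± 1.19) and *Homer1* (3.90 ± 0.48). Neighbours in this order overlapped in their ranges over the 6 mice except between *Dlg2* and *Shank2* and between *Shank2* and *Homer2*. The order depends on the length used. With the longest transcript as the length, *Dlg4* stood at 77.8 RPKM, clear of all other members, *Shank3* and *Shank1* at 40.3 and 39.6, *Dlg2* at 37.7 and *Homer1* at 8.18, above *Homer3* at 7.85.

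**Figure D2:**
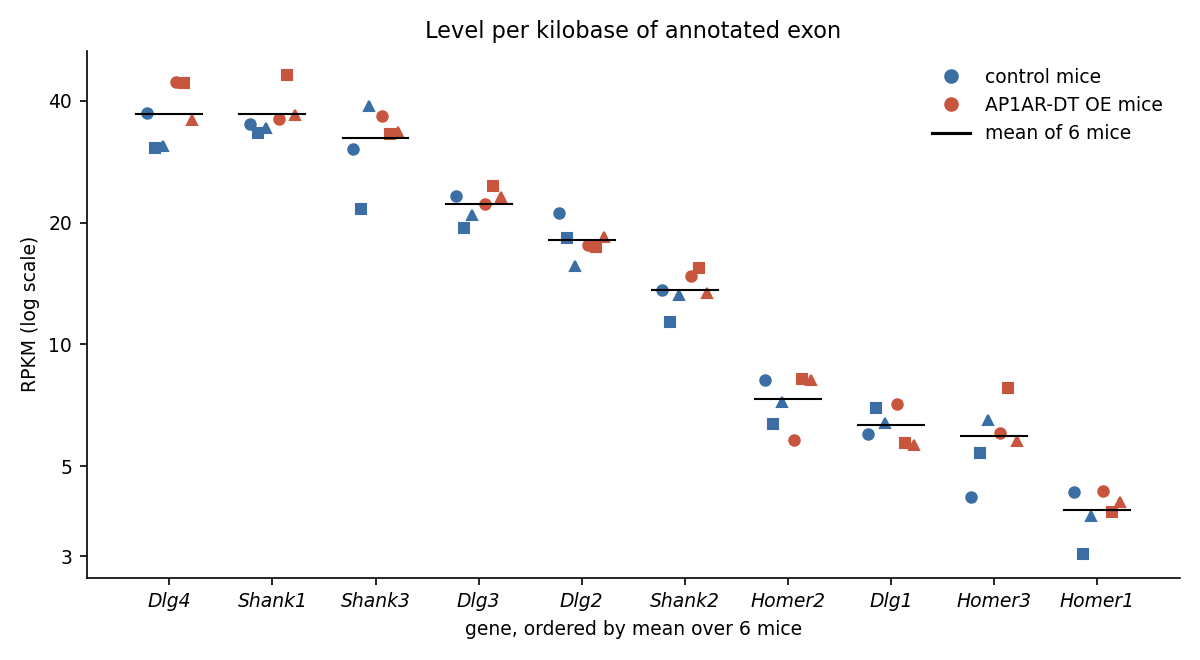
RPKM per kilobase of annotated exon (vertical axis, log scale) of each scaffold gene, ordered by the mean over the 6 mice (black line), with control mice in blue and AP1AR-DT OE mice in red. Dlg4, Shank1 and Shank3 lie near 37.2, 37.0 and 32.3 RPKM and Homer1 lies lowest at 3.90.

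Ratios within a library do not depend on how libraries are scaled to each other, but those given here were not corrected for GC content. As a share of the summed RPKM of the 4 Dlg genes, *Dlg4* made up 42.4%, 40.5% and 41.8% in the controls and 48.6%, 48.1% and 43.2% in the AP1AR-DT OE mice. Every AP1AR-DT OE mouse was above every control, mouse C by the least. The log2 ratio of *Dlg4* to its family was 0.16 higher in AP1AR-DT OE mice (exact permutation P = 0.1, the smallest possible), or 0.15 higher with the longest transcript as the length. The shares of the other 9 members overlapped between the groups. The same share was not computed for other families, and 22.4% of all genes tested did not overlap in normalised CPM, so 1 member of 10 is not read as a result. *Dlg2* made up 23.2% ± 1.77 (SD, n = 3) of the Dlg sum in controls and 20.1% ± 1.75 (SD, n = 3) in AP1AR-DT OE mice, and *Dlg1* 8.27% ± 1.26 and 6.93% ± 0.78. With the correction by mean GC content described below, the Log2FC of *Dlg1*, *Dlg2*, *Dlg3* and *Dlg4* were nearly equal, at 0.17, 0.16, 0.14 and 0.18. By the GC content of the longest transcript they were 0.11, 0.11, 0.10 and 0.42. The higher share of *Dlg4* thus depends on how GC content is treated.

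Of the 12 ratios between members of the same family, the groups were separate for 1, *Dlg1* to *Dlg4*, whose log2 value was -2.63, -2.13 and -2.27 in the controls and -2.65, -2.95 and -2.67 in the AP1AR-DT OE mice. Control 1 and mouse A were nearly equal. The exact permutation P of this ratio was 0.1, and 0.72 after adjustment over the 12 ratios. The ratio was not corrected for GC content, and with the correction by mean GC content the Log2FC of *Dlg1* and *Dlg4* were 0.17 and 0.18. The Shank ratios differed between the groups by at most 0.03 (log2). The split of the Shank sum was 44.8% ± 5.36 *Shank1*, 38.7% ± 6.23 *Shank3* and 16.6% ± 1.05 *Shank2* in controls (SD, n = 3). In AP1AR-DT OE mice it was 44.7% ± 3.87, 38.9% ± 3.65 and 16.4% ± 0.46 (SD, n = 3). The means were thus close while single mice varied.

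Across all genes, Log2FC rose with the GC content of the transcript. The median was -0.30 in the lowest of 10 equal classes of genes by GC content, where 22.0% were called lower, and 0.22 in the highest class, where 17.5% were called higher. The scaffold genes span almost the whole range, from *Homer1* (36.9% GC in the longest transcript) through *Dlg1* (43.8%), *Dlg2* (44.3%), *Homer2* (44.4%), *Dlg4* (46.8%), *Dlg3* (50.4%) and *Shank2* (54.97%) to *Homer3* (60.2%), *Shank1* (61.4%) and *Shank3* (62.4%). Set against the median of genes of like GC content in the longest transcript, 8 of 10 members lay above it. *Shank1* and *Shank3* (Log2FC 0.22 and 0.18) lay just below the median of 0.22 of the GC-richest class. *Homer1* (0.14) lay above the median of -0.30, and *Dlg4* (0.34) above the median of -0.09, of genes in their classes. The classes rest on the longest transcript alone. Averaged over transcripts, the GC content was 43.5% for *Homer1*, 53.0% for *Homer2* and 56.0% for *Dlg4*, and classes by that average were not formed.

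**Figure D3:**
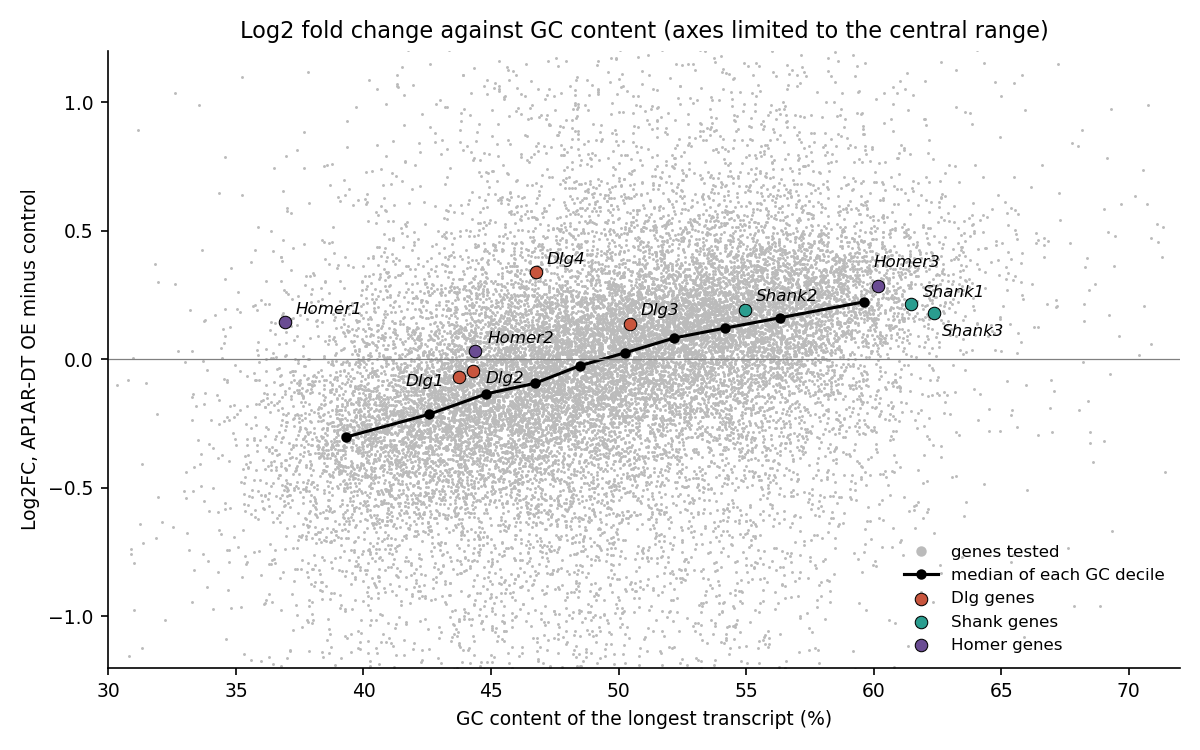
Log2FC of AP1AR-DT OE over control (vertical axis) against the GC content of the longest transcript (horizontal axis, %) for the genes tested (grey), the medians of 10 equal classes of genes by GC content (black) and the scaffold genes (coloured by family). The medians rise from -0.30 to 0.22; Homer1 and Dlg4 lie above the line, and the Shank genes lie near it.

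With a smooth correction for GC content in each library, the pattern among the members changed. By the GC content of the longest transcript, 2 members were called, *Dlg4* (Log2FC 0.42 ± 0.13, SE) and *Homer1* (0.48 ± 0.15), against 7.18% of all genes. By the mean GC content over a gene's transcripts, only *Homer1* was called (0.36 ± 0.15), against 7.15% of all genes. The adjusted P in edgeR was 0.536 for both genes in the former fit and 0.542 for *Homer1* in the latter.

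For *Homer1* the corrected values were 46.5, 31.9 and 40 CPM in the controls and 57.2, 57.3 and 51.1 in the AP1AR-DT OE mice by the longest transcript, and the groups no longer overlapped, as for 15.7% of all genes with this correction. By the mean GC content they were 48.7, 33.3 and 41.6 against 56.4, 52.7 and 49.6, again without overlap (16.2% of all genes). *Shank1*, whose groups were separate without a correction, overlapped with either, at 409, 387 and 389 CPM in controls and 341, 416 and 381 in AP1AR-DT OE mice by the longest transcript. *Dlg4* differs between the corrections and its transcripts differ in composition, with 46.8% GC in the longest and 56.0% on average, and its Log2FC was 0.18, not called, by the average. For the Shank genes both corrections took the Log2FC to between -0.10 and 0.05. For *Dlg1* and *Dlg2* they turned it from below 0 to between 0.11 and 0.17, and neither was called.

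**Figure D4:**
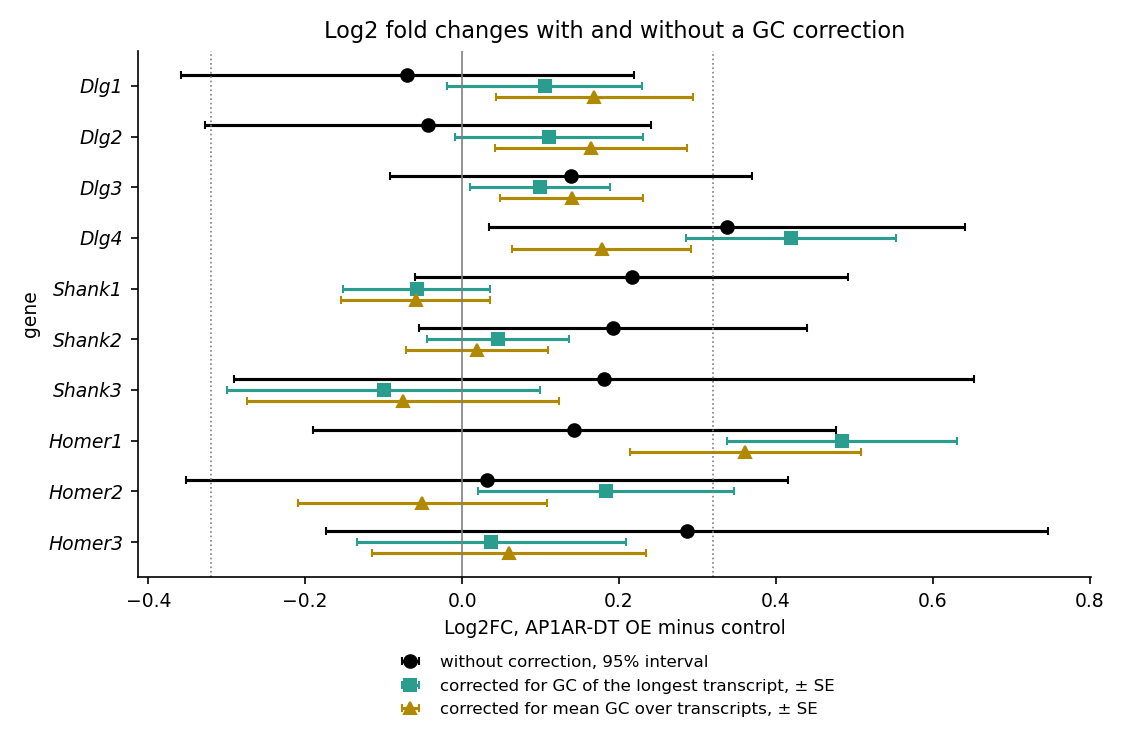
Log2FC of each scaffold gene without a GC correction (black, 95% interval) and with a correction by the longest transcript (green, ± SE) or by the mean over transcripts (ochre, ± SE), with dotted lines at the fold threshold of 0.32 in either direction. The corrections move the 3 Shank genes towards 0 and Homer1 from 0.14 to 0.48 and 0.36.

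A list of 36 genes was read for proteins that bind these scaffolds or sit beside them in the postsynaptic density. It holds 21 genes listed under Dlg, 8 under Shank and 7 under Homer, named partners here, and all 36 were tested. Of these 6 were called (16.7%, against 12.2% of all genes), 5 higher and 1 lower, where 5.1% of all genes were called higher and 7.15% lower. The median Log2FC of the 36 was 0.12, against -0.014 for all genes. The groups did not overlap for 4 of 36 (11.1%, against 22.4%). None of the 36 reached an adjusted P under 0.05 in edgeR's test, where 8 had an unadjusted P under 0.05, and over all fits, DESeq2 and limma-voom among them, the lowest adjusted P was 0.074.

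Among the partners of Dlg, *Begain*, a guanylate kinase-binding partner, stood at 226, 206 and 175 CPM in controls and at 276, 303 and 223 in AP1AR-DT OE mice. Its groups overlapped, control 1 being above mouse C, and it rose by a Log2FC of 0.40 ± 0.15 (SE; adjusted P = 0.300, edgeR). *Iqsec2*, an Arf exchange factor, stood at 136, 111 and 142.8 CPM against 181, 186 and 142.5, so its groups overlapped. It rose by a Log2FC of 0.39 ± 0.14 (SE; adjusted P = 0.303, edgeR). When mice were left out in turn, the *Begain* Log2FC ran from 0.30 to 0.53 and its call was lost without control 2, control 3, mouse A or mouse B. The *Iqsec2* call was lost without control 2, mouse A or mouse B (Log2FC 0.29 to 0.51 over the 6 fits). *Lin7c*, a small PDZ protein, was the one that fell, from 85.0, 88.7 and 103 CPM to 69.0, 59.6 and 76.4, a Log2FC of -0.43 ± 0.13 (adjusted P = 0.295, edgeR) with no overlap, and it was called in all 6 fits that left out a mouse (-0.50 to -0.33). *Dlgap1* (SAPAP1), which ties Dlg to Shank, stood at 254, 192 and 305 CPM against 225, 273 and 236, with a Log2FC of -0.03 ± 0.17.

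Among the partners of Shank, *Baiap2* (IRSp53), a membrane-bending adaptor, stood at 163, 72.1 and 88.4 CPM in controls and at 242, 200 and 140 in AP1AR-DT OE mice. Control 1 was above mouse C, so the groups overlapped, and the rise of 0.85 ± 0.33 (Log2FC ± SE; adjusted P = 0.313, edgeR) was 0.25 against control 1 alone and 1.27 without control 1. Among the partners of Homer, *Agap2* (PIKE), a GTPase that links Homer to PI3 kinase, stood at 975, 631 and 742 CPM against 1245, 1210 and 951, with a Log2FC of 0.54 ± 0.19 (adjusted P = 0.296, edgeR) and an overlap of control 1 with mouse C. The calls of *Baiap2* and *Agap2* were both lost without control 2, control 3, mouse A or mouse B, over Log2FC ranges of 0.63 to 1.27 and 0.41 to 0.73. *Grm5*, the metabotropic receptor that Homer binds, stood at 244, 208 and 170 CPM against 167, 159 and 225, with a Log2FC of -0.18 ± 0.18.

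The 5 partners called higher have 57.7% to 63.6% GC in their longest transcripts, and *Lin7c* has 37.3%. With the GC correction by the longest transcript, 0 of these 6 genes were called and the Log2FC of *Begain* was 0.08, of *Lin7c* -0.10 and of *Baiap2* 0.64, the last still above the fold threshold, while *Cacng2* (stargazin, an AMPA receptor auxiliary subunit, named after its value was seen) was called at -0.33. With the correction by mean GC content, 0 of 36 partners were called in edgeR, where 0 had an unadjusted P under 0.05 and DESeq2, without a GC correction, called 9. Without a correction, the 5 partners called higher and *Dlg4* were each highest in mouse A or mouse B, and *Lin7c* was lowest in mouse B. An extreme in an AP1AR-DT OE mouse follows largely from the choice of called genes. Of all genes tested, 14.8%, 19.3% and 10.2% were highest in mice A, B and C.

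**Figure D5:**
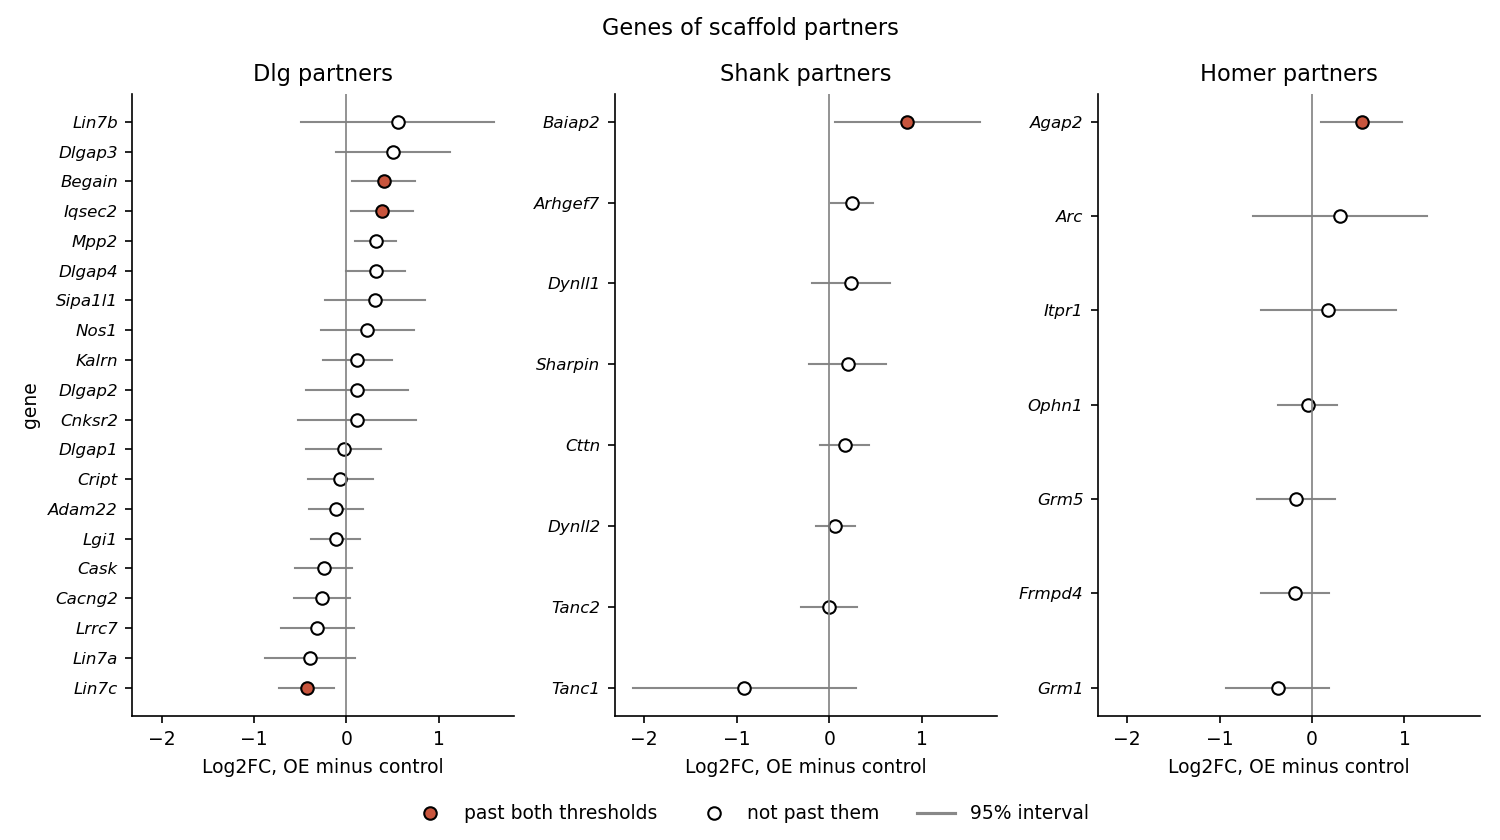
Log2FC of AP1AR-DT OE over control (horizontal axis) with its 95% interval for 35 of the 36 genes of Dlg, Shank and Homer partners, without a GC correction. Filled points are the 5 genes plotted that passed both thresholds, 4 to the right of 0 and Lin7c to the left.

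The genes whose values over the 6 mice ran closest to those of 3 members, one from each family, were found among 13996 others with a mean log2 CPM above 2, by the root mean square difference of log2 values centred on their own mean. For *Dlg4* these were *Zfp428*, *Ripor1* and *H2-T23* (differences of 0.03, 0.04 and 0.04). For *Shank3* they were *Robo2*, *Dio2* and *Pml* (0.06, 0.07 and 0.07), and for *Homer1* *Celf2*, *Nrbf2* and *Gm28071* (0.02, 0.03 and 0.04). No other scaffold gene and none of the 36 partners was among them. Since only the 3 nearest genes of each member were kept, this absence does not show how alike the scaffold genes are. With 6 mice this likeness is a description of these libraries.

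RefSeq promoter windows of GRCm38.p6, from 250 bases before to 50 after a start site, were given for 8 of the 10 members, 18 windows in all. The study's factor of interest is the activator NRF1. The core GCGCATGC, searched on both strands, was in 0 of the 18 windows and in 2.71% of all 32851 windows. The NRF1-binding sequences that the study predicts in its target promoter do not contain this core, and they were not searched for. The absence of the core therefore does not bear on sites like those of the study. The cAMP response element core TGACG was in 3 windows, those of *Dlg3*, *Dlg4* and *Homer1*, against 20.8% of all windows, and the GC box GGGCGG in 7 windows of 6 genes, against 35.7%. A match or its absence describes only these letters in these windows.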

How the data were processed

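Per the study's methods, reads were mapped to GRCm38 with Bowtie2, an aligner that does not place reads across introns, and StringTie coverage over GENCODE genes was turned into counts. The submitters' processing notes instead name TopHat2 2.0.4, HTSeq, Cuffdiff, edgeR 2.6.12 and mm9. The authors deposited the counts per gene without normalization, and these were used as deposited. The same table holds the authors' DESeq2 comparison, which was not used. Use of strand and the versions of the study's tools are not given in the sources used here. Which of these made the counts is open, and junction reads were not measured here.

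Groups came from the labels. The columns of the AP1AR-DT OE mice are numbered 1 to 3 and the mice 3 to 5, so these libraries are unnumbered. Genes were tested in R 4.3.3 with edgeR 4.0.16 (filterByExpr, TMM, quasi-likelihood F-test, two-sided, Benjamini-Hochberg adjustment over the 21844 genes tested). The biological coefficient of variation was 0.313. GC content, length and coordinates are from GENCODE vM21, in which 52133 of 52390 identifiers were found; the corrections are natural splines with 5 degrees of freedom fitted per library over 14194 genes. The alternatives were DESeq2 1.42.0, limma-voom, other scalings and filters, the corrections and leaving out mice. A comparison with control 1 as the sole control was added after seeing the data. The fits were tested on simulated counts. The members, the partner and marker lists and the named genes (all members; partners called plus others set by name, among them *Dlgap1*, *Grm5* and *Baiap2*; the 3 nearest genes of *Dlg4*, *Shank3* and *Homer1*) were chosen with earlier results of these data known. The values of 1 partner gene are in the counts and not reported here. Python 3.11.15 with scipy 1.17.1 made the tables.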

Additional observations from a re-analysis of the deposited data

How the results depend on the processing

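The 2675 genes called of all tested became 1568 and 1562 with the GC corrections by the longest transcript and by mean GC content, 1764 with control 1 as the sole control, and 1430 to 3508 when each mouse was left out in turn. The count of scaffold genes called, 1, became 2 with the GC correction by the longest transcript, 3 with the length correction (*Dlg4*, *Shank1* and *Shank2*) and 0 to 1 when mice were left out. The 6 partner genes called became 1 and 0 with the GC corrections, 2 with control 1 as the sole control and 1 to 14 when mice were left out. With control 1 alone, 1 library stands for its group and is assumed to vary like the others. Of 160 values of the members under 16 alternatives, 128 kept their direction and their side of the thresholds, 12 crossed a threshold and 20 changed sign, none of them called.

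The sign changes were these. *Dlg1* was 0.11, 0.17, 0.011 and 0.037 with the corrections by longest-transcript GC, mean GC and length and against control 1 alone, and *Dlg2* was 0.11, 0.16 and 0.067 with the 3 corrections. *Shank1* was -0.058 and -0.059 with the GC corrections and *Shank3* -0.10 and -0.075. *Homer1* was -0.075 and *Homer2* -0.15 against control 1 alone, and *Homer2* was -0.051 with mean GC. *Dlgap1* was 0.070 with the length correction and *Grm5* 0.021 with longest-transcript GC. When mice were left out, *Dlg1* ran from -0.18 to 0.0046, *Dlg2* from -0.13 to 0.070, *Shank3* from -0.0043 to 0.42, *Homer2* from -0.049 to 0.18 and *Dlgap1* from -0.18 to 0.15. The causes were not tested. No paired analysis was made, since the groups were separate mice and the labels give no pairing.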
